A study of Mus musculus with 3 samples.

Results

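Potassium channel subunit genes were compared across 3 populations of mouse endosteal cells. The set was chosen by gene symbol: a gene entered it if its name in the array's annotation began with Kcn, followed by further letters and a number, and Kcnj8 was left out of the 84 genes that matched. This gave 83 of the 18193 named genes of the array, 80 of them protein-coding and 3 non-coding. Each gene was read from the probe set with the highest mean signal over the arrays, a probe set being a group of short probes for a single transcript.

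The cells came from C57BL/6 mice and were released with collagenase from fragments of femur and tibia, so that they represent the cells lining the inner bone surface. Cells without CD45, CD31 and Ter119, which mark blood cells, endothelium and erythroid cells, were then separated by ALCAM, a cell adhesion protein, and by Sca-1, a surface protein found on many stem and progenitor cells. The groups were ALCAM+ Sca-1- (ALCAM+ below), ALCAM- Sca-1+ (Sca-1+ below) and ALCAM- Sca-1- (double-negative below), all of the same strain with no treatment named, and age, sex and the number of mice pooled are not given in the sources used here. Each population was measured on 1 array, so no difference has a replicate check and no p-value is given. A gene was called higher or lower by size alone, at 4-fold, which is 2 on the log2 scale. Signals at or below a floor of 75.4, the pooled median of all non-control probe sets, were set to the floor for folds, which are then given as "at least". In bulk samples of this kind, fewer cells of a type and less RNA per cell cannot be told apart.

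The 3 arrays had the same 2% trimmed mean signal of 500, and 48.9 to 51.4% of probe sets lay above the floor. Alcam, the sorting gene, had a signal of 268 in ALCAM+, 41.1 in Sca-1+ and 36.3 in double-negative cells on its brightest probe set. Ptprc, which encodes CD45, had 11.6, 163 and 159 on its brightest probe set, above the floor in both populations without ALCAM. Its other probe set, at 47.3, 37.6 and 44.3, was below the floor on every array. Pecam1, the gene of CD31, did not pass the floor on any array. Of the lists of cell type markers, the summed signal in ALCAM+, Sca-1+ and double-negative cells was 145596, 9976 and 46628 for 7 osteoblast genes and 213083, 4622 and 176946 for 9 chondrocyte genes. The fibroblast or mesenchymal progenitor list of 9 genes summed to 5677, 97862 and 2549.

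Potassium channels let potassium leave or enter the cell along its gradient and so set the resting membrane potential, cell volume and the driving force for calcium entry. Pore-forming subunits assemble as tetramers, or as dimers in the tandem-pore (K2P) class, and fall into classes by what opens them: voltage, intracellular calcium or sodium, or, in inward rectifiers and K2P channels, no gate of that kind. Silent Kv subunits form no channel of their own and alter the channels they join, and accessory subunits alter gating or traffic. In skeletal cells, calcium-activated and K2P channels have been studied for their part in responses to mechanical load, and potassium currents have been recorded in osteoblasts and chondrocytes.

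Most channel genes were dim in these cells. Of the 83 members, 33 (39.8%) were above the floor on at least 1 array and are called measured, against 69.5% of all named genes. On all 3 arrays 11 members (13.3%) were above it, against 54.3% of all genes. A further 9 were above it on 2 arrays and 13 on 1 array. Signals of more than 4 times the floor, 302, were reached by 16 members (19.3%) and by 51.4% of all genes. By array, 20 members (24.1%) lay above the floor in ALCAM+, 19 (22.9%) in Sca-1+ and 25 (30.1%) in double-negative cells, beside 61.0%, 61.0% and 63.2% of all genes.

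**Figure D1:**
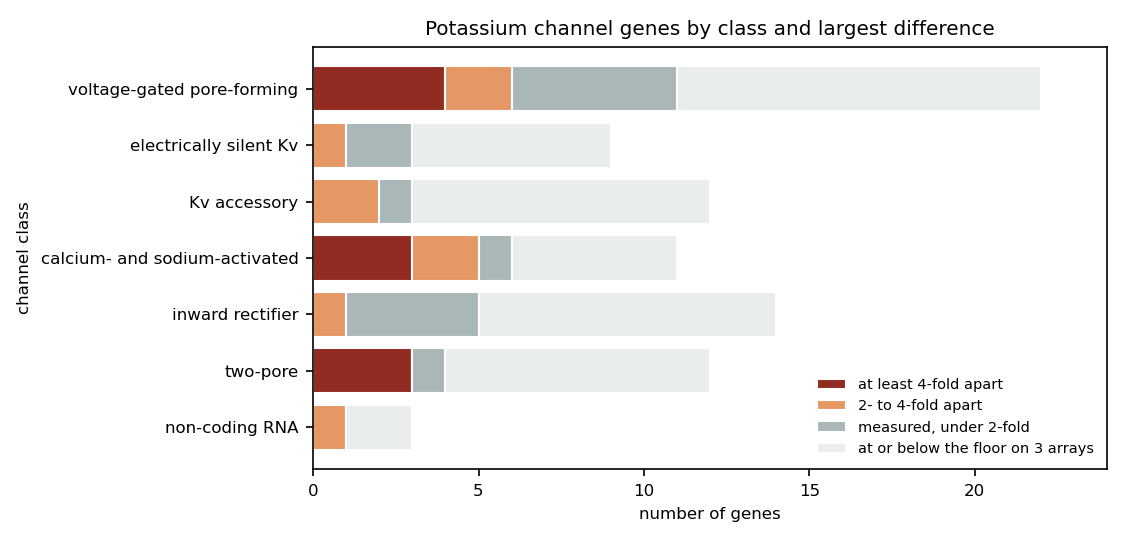
Number of potassium channel genes in each class by the largest fold in any of the 3 comparisons, with signals below the floor set to it (1 array per population, two-pore being the K2P class). Of the measured genes, 3 of 4 K2P and 3 of 6 calcium- and sodium-activated genes were at least 4-fold apart, and the palest bars are the genes at or below the floor on all 3 arrays. A gene can reach 4-fold only with a signal of at least 4 times the floor, 302.

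By class, 11 of 22 voltage-gated pore subunits, 3 of 9 silent Kv subunits, 3 of 12 Kv accessory subunits, 6 of 11 calcium- and sodium-activated genes, 5 of 14 inward rectifiers, 4 of 12 K2P channels and 1 of 3 non-coding genes were measured. Of the members above 4 times the floor, 4 were K2P, 5 voltage-gated, 4 calcium- or sodium-activated, and accessory, inward rectifier and non-coding genes gave 1 each. For the 20 members above the floor on at least 2 arrays, the array with the lowest signal can be told, and it was Sca-1+ for 11 (55.0%), against 37.3% of all such genes. It was ALCAM+ for 6 and double-negative for 3. With arrays scaled on poly-A spike-in controls, Sca-1+ was lowest for 7 of 20 (35.0%), beside 13.0% of all such genes, and ALCAM+ for 9, beside 76.6%. The highest signal among measured members was in double-negative cells for 16 (48.5%, beside 33.2% of all measured genes), in ALCAM+ for 9 (27.3%, beside 28.1%) and in Sca-1+ for 8 (24.2%, beside 38.7%). A gene above the floor on 1 array only, as 13 of these members were, is highest there by the rule for measured genes. Those members therefore add nothing to the comparison of populations.

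**Figure D2:**
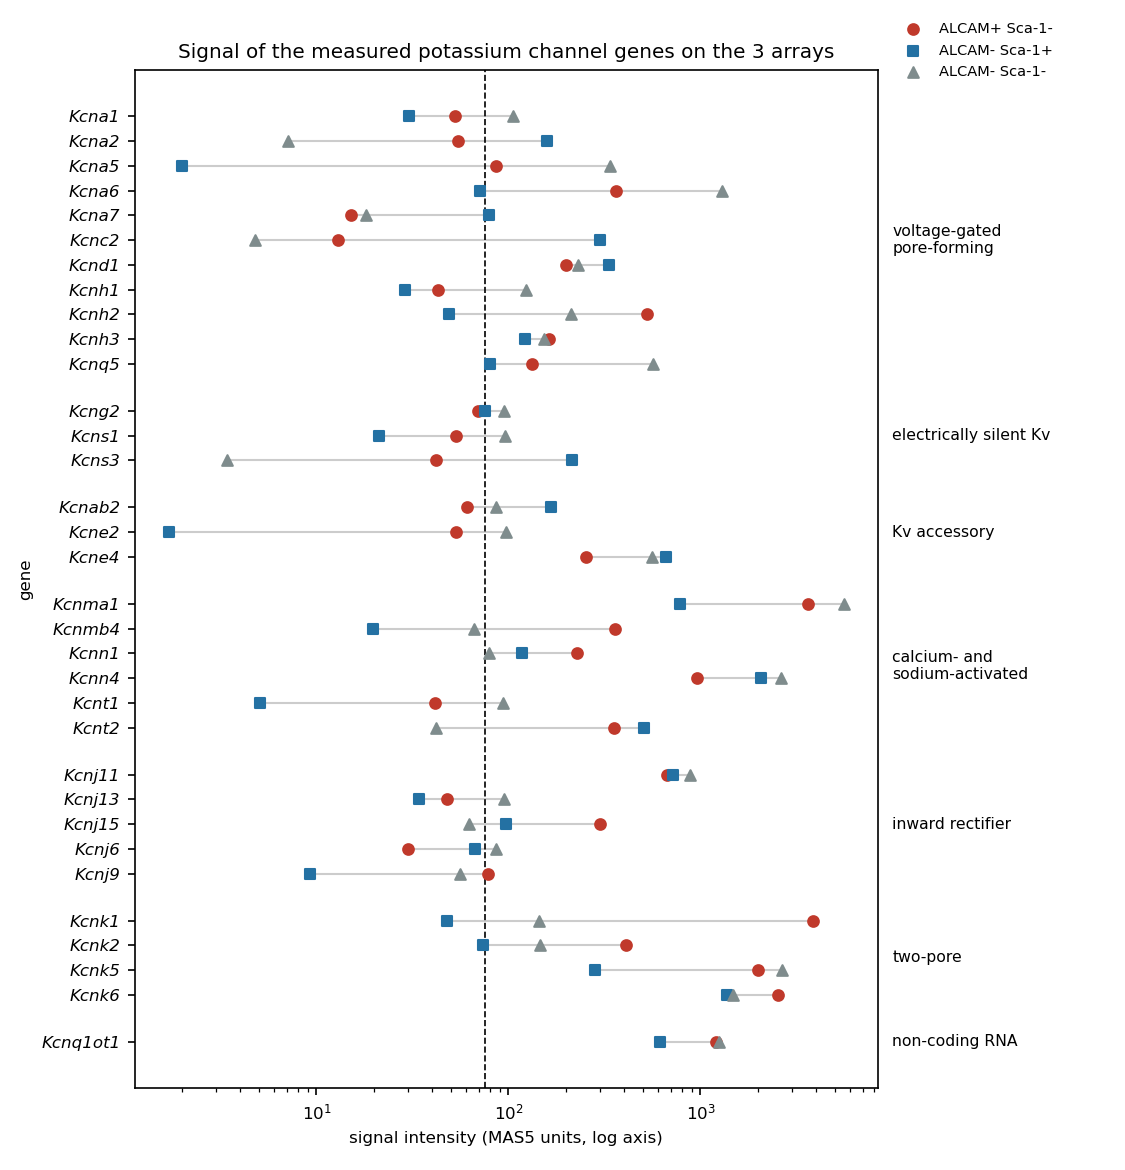
Signal of each of the 33 measured potassium channel genes on the 3 arrays (log axis, 1 array per population, so no error bar), by channel class (two-pore is K2P), with the floor of 75.4 as a dashed line. Circles are ALCAM+, squares Sca-1+ and triangles double-negative cells. Kcnk1 stands at 3866 in ALCAM+ cells and below the floor in Sca-1+ cells, and Kcnt2 is below the floor in double-negative cells.

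At 4-fold, 10 of the 33 measured members (30.3%) differed in at least 1 comparison, against 14.8% of the 12643 measured genes. At 2-fold 19 (57.6%) did, against 40.0%, so 9 members were counted at 2-fold and not at 4-fold, and 14 at neither. For members with an array at or below the floor these counts rest on a lower bound, so that a larger difference could not be measured. The genes apart by 4-fold were Kcnk1, Kcnk2 and Kcnk5 of the K2P class, Kcnma1, Kcnmb4 and Kcnt2 of the calcium- and sodium-activated class, and Kcna5, Kcna6, Kcnh2 and Kcnq5 of the voltage-gated class. No silent, accessory, inward rectifier or non-coding member was counted at 4-fold. With signals raised to the floor, a gene can be counted only if its brightest signal reaches 4 times the floor, 302. No silent member passed that signal, and 1 member each of the accessory, inward rectifier and non-coding classes did. The count by class therefore depends on how bright the genes were.

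Against double-negative cells, ALCAM+ cells had 3 members at least 4-fold higher (Kcnk1, Kcnmb4 and Kcnt2), and 2.01% of all measured genes were that much higher. Kcnq5 alone was 4-fold lower, beside 2.67% of all genes. At 2-fold the counts were 7 higher, beside 6.68% of all genes, and 5 lower, beside 10.6%. The median log2 difference of the members was -0.19 and that of all measured genes -0.03.

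Against double-negative cells, Sca-1+ cells had 5 members at least 4-fold lower (Kcna5, Kcna6, Kcnk5, Kcnma1 and Kcnq5), or 15.2% beside 4.71% of all genes. Kcnt2 was the single member 4-fold higher, beside 5.46% of all genes. At 2-fold 7 members were lower, beside 12.7%, and 4 higher, beside 15.0%. The median log2 difference was -0.33 for the members and 0.00 for all genes.

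ALCAM+ against Sca-1+ cells gave the most one-sided count. Here 7 members were at least 4-fold higher in ALCAM+ (Kcna6, Kcnh2, Kcnk1, Kcnk2, Kcnk5, Kcnma1 and Kcnmb4), which is 21.2% beside 3.99% of all measured genes. None was counted as 4-fold lower, beside 5.86% of all genes, and 6 were at least 2-fold lower, beside 15.8%. That count depends on the floor, since Kcnc2 was at least 3.99-fold lower with its ALCAM+ signal set to it. A floor of 62.3 added Kcnc2, and a floor of 21.1 added Kcnc2 and Kcns3. At 2-fold 8 were higher, beside 11.2%. The 3 comparisons share arrays in pairs, so a high or low array enters more than 1 of them. With scaling on the poly-A controls the 7 higher members became 2, beside 2.12% of all measured genes, and 2 members were 4-fold lower, beside 12.3%, with the median log2 difference of all genes at -0.82.

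**Figure D3:**
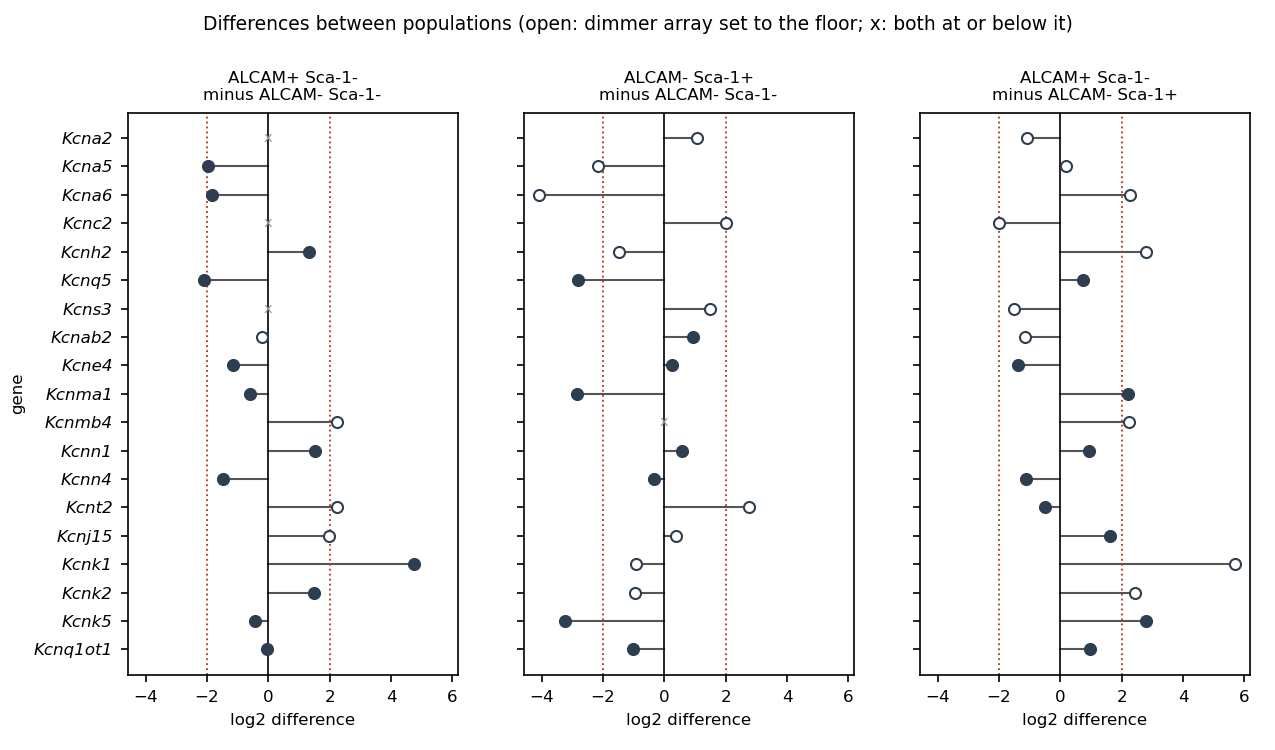
Log2 differences of the potassium channel genes at least 2-fold apart in each of the 3 comparisons, dotted lines at 4-fold (2 on the log2 scale), 1 array per population. Open points have the dimmer array set to the floor, and a cross marks a gene at or below it on both arrays. Kcnk1 lies farthest out, its ALCAM+ signal at least 51.3 times that of Sca-1+ cells.

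For 3 of the 10 members at least 4-fold apart, the 250 bases before a RefSeq start lay wholly outside the gene, and they are shown for that reason. They are from build GRCm38.p6 and given 5′ to 3′ on the gene's strand. All 3 genes were among those at least 4-fold lower in Sca-1+ than in double-negative cells, which played no part in the choice. Capitals mark the letters GGGCGG on either strand, the GC box bound by Sp1-type factors.
Kcna5, chr6:126535556-126535805, minus strand: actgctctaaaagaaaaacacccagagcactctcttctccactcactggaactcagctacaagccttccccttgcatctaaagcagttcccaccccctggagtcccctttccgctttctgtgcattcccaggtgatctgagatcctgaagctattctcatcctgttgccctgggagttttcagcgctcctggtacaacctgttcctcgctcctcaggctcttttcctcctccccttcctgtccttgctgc
Kcnk5, chr14:20181783-20182032, minus strand: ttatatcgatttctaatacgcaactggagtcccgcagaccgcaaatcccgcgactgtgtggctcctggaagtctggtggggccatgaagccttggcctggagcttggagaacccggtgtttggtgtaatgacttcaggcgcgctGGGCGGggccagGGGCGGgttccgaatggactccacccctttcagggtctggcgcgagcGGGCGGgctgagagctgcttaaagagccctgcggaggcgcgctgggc
Kcnq5, chr1:21962651-21962900, minus strand: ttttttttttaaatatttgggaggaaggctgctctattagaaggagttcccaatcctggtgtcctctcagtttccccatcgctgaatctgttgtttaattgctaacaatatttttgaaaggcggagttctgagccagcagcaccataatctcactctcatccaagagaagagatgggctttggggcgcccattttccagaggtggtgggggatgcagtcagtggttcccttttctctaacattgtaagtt
Kcna5 encodes the voltage-gated subunit Kv1.5, Kcnk5 the K2P channel TASK-2 and Kcnq5 a subunit of the M-current. The Kcnk5 window held 3 GC boxes and 19 CpG, and those shown for Kcna5 and Kcnq5 held no GC box and 3 CpG each. Another RefSeq window of Kcnq5, not wholly outside the gene and not shown, held no GC box and 14 CpG. Of all 32851 RefSeq windows of this length 32.7% held a GC box, and the median number of CpG was 6. Neither TATAAA, the TATA box (12.4% of all windows), nor TGTGGT, the core bound by Runx factors (14.0%), occurred on either strand of the 3 windows shown. Windows were found for 63 of the 83 members, 88 windows in all, of which 45.5% held GGGCGG, 3.41% TATAAA and 11.4% TGTGGT. These matches describe letters only.

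The K2P channels carry background potassium currents, and the 4 measured ones included the gene farthest apart in the set. Their median log2 difference was 1.13 between ALCAM+ and double-negative cells and 2.63 between ALCAM+ and Sca-1+ cells. Kcnk1, which encodes TWIK-1, a weakly conducting background channel, had a signal of 3866 in ALCAM+, 47.8 in Sca-1+ and 144 in double-negative cells. It was high in ALCAM+ cells alone, 26.9-fold above double-negative and at least 51.3-fold above Sca-1+ cells. Its other probe set gave 487, 11.1 and 39.4, above the floor in ALCAM+ cells only.

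Kcnk2 encodes TREK-1, a channel opened by membrane stretch, and had 411 in ALCAM+, 73.9 in Sca-1+ and 147 in double-negative cells. It was 2.80-fold higher in ALCAM+ than in double-negative cells and at least 5.45-fold higher than in Sca-1+ cells. Kcnk5 encodes the TASK-2 channel, which opens at alkaline pH, and had 1986, 284 and 2657 in the same order of populations. It was low in Sca-1+ cells only, 9.37-fold below double-negative and 7.0-fold below ALCAM+ cells, while ALCAM+ and double-negative cells were 1.34-fold apart. Its second probe set did not pass the floor on any array. Kcnk6, encoding TWIK-2, was the even one of the class, with 2544, 1372 and 1479, at most 1.85-fold apart. The other 8 K2P genes, Kcnk3, Kcnk4, Kcnk7, Kcnk10, Kcnk12, Kcnk13, Kcnk15 and Kcnk16, were not above the floor on any array.

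Among channels gated by calcium, the large-conductance (BK) channel had its pore subunit and a single accessory subunit measured. Kcnma1, the BK pore subunit, had 3654 in ALCAM+, 783 in Sca-1+ and 5578 in double-negative cells. It was 7.12-fold lower in Sca-1+ than in double-negative cells and 4.67-fold lower than in ALCAM+ cells, which in turn were 1.53-fold below double-negative cells. All 4 of its other probe sets had their lowest signal in Sca-1+ cells, the brightest of them with 578, 49.8 and 1695. Kcnmb4, the beta-4 subunit that modifies BK gating, had 358, 19.8 and 66.2, above the floor in ALCAM+ cells only and at least 4.75-fold higher there than in either other population. Kcnmb1 and Kcnmb2, other BK beta subunits, and Kcnu1, a pore subunit best known from sperm, were below the floor throughout. Thus the pore subunit was above the floor in all 3 populations, and the beta-4 subunit in 1.

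Of the small- and intermediate-conductance calcium-activated channels, Kcnn1 and Kcnn4 were measured and Kcnn2 and Kcnn3 were not. Kcnn4, the intermediate-conductance channel known from red cells and activated lymphocytes, had 955 in ALCAM+, 2062 in Sca-1+ and 2621 in double-negative cells. It was lowest in ALCAM+ cells, 2.75-fold below double-negative and 2.16-fold below Sca-1+ cells. Its second probe set gave 164, 720.5 and 608. Kcnn1, a small-conductance channel, had 227, 117 and 79.1 and was 2.87-fold higher in ALCAM+ than in double-negative cells. Its second probe set gave 202, 105 and 92.5.

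Of the sodium-activated channels, both genes were measured. Kcnt2, which encodes Slick, had 356 in ALCAM+, 508 in Sca-1+ and 41.8 in double-negative cells. ALCAM+ cells exceeded double-negative cells at least 4.71-fold and Sca-1+ cells exceeded them at least 6.73-fold, and it was 1.43-fold lower in ALCAM+ than in Sca-1+ cells. It was the single member at least 4-fold higher in both marker-positive populations, and rests on 1 probe set. Kcnt1, which encodes Slack, had 41.2, 5.1 and 93.2, above the floor in double-negative cells only and at least 1.24-fold higher there than in either other population.

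Of the 11 measured voltage-gated genes, 5 were highest in double-negative, 4 in Sca-1+ and 2 in ALCAM+ cells, beside 33.2, 38.7 and 28.1% of all measured genes. Among the 11, Kcna1, Kcna2, Kcna7, Kcnc2 and Kcnh1 passed the floor on 1 array only, which is then their highest by the rule for measured genes. In the Kv1 family, 5 of 7 genes were measured. Kcna6, encoding Kv1.6, had 364 in ALCAM+, 71.3 in Sca-1+ and 1295 in double-negative cells. It was 3.56-fold lower in ALCAM+ and at least 17.2-fold lower in Sca-1+ than in double-negative cells, and ALCAM+ exceeded Sca-1+ cells at least 4.82-fold. Its other probe sets, at 55.3, 29.7 and 102 and at 47.5, 7.4 and 65.3, passed the floor on 1 array at most, that of double-negative cells at 102. Kcna5, encoding Kv1.5, a channel of atrial muscle, had 85.6, 2.0 and 338, at least 4.49-fold lower in Sca-1+ and 3.95-fold lower in ALCAM+ than in double-negative cells. Kcna2, encoding the axonal channel Kv1.2, had 54.6, 159 and 7.1, above the floor in Sca-1+ cells only and at least 2.10-fold higher there, but its 3 other probe sets were below the floor. Kcna1 and Kcna7 were above the floor on 1 array each, at 106 in double-negative and 78.9 in Sca-1+ cells, and Kcna3 and Kcna4 on none.

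Kcnq5, an M-current subunit, had 133 in ALCAM+, 80.3 in Sca-1+ and 567 in double-negative cells. It was 4.27-fold lower in ALCAM+ and 7.06-fold lower in Sca-1+ than in double-negative cells, with 1.65-fold between the first pair. Its second probe set gave 15.0, 69.2 and 250.5, above the floor in double-negative cells only. Kcnq1 and Kcnq3 were not measured.

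Kcnh2, encoding ERG1, the channel that repolarizes heart muscle, was the voltage-gated gene highest in ALCAM+ cells by at least 2-fold. It had 526 in ALCAM+, 48.9 in Sca-1+ and 211 in double-negative cells, 2.50-fold above double-negative and at least 6.97-fold above Sca-1+ cells. Kcnh1, encoding EAG1, was above the floor in double-negative cells only, at 123. Kcnh3 had 162, 121 and 153, and another of its probe sets, at 86.0, 161 and 18.6, gave another order. Kcnh5, Kcnh7 and Kcnh8 were not measured.

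Kcnc2, encoding Kv3.2, a channel of fast-firing neurons, had 12.9, 301 and 4.8. It was above the floor in Sca-1+ cells only and at least 3.99-fold higher there than in either other population, just under the 4-fold size. Kcnd1, encoding Kv4.1, was above the floor in all 3, with 199, 334 and 229, at most 1.68-fold apart. Kcnc1, Kcnc4, Kcnd2 and Kcnd3 were not measured.

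Silent and accessory subunits gave few values above the floor. Kcns3, a silent subunit that modifies Kv2 channels, had 42.1 in ALCAM+, 214 in Sca-1+ and 3.4 in double-negative cells, so that Sca-1+ exceeded either other population at least 2.84-fold. Its second probe set gave 4.9, 113 and 24.3. Kcng2 and Kcns1 reached at most 95.3 and 96.5, and Kcnf1, Kcng1, Kcng4, Kcns2, Kcnv1 and Kcnv2 were not measured. Thus the silent subunit most apart was high where Kcnc2 and Kcna2 also were, in Sca-1+ cells.

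Kcne4, an accessory subunit that inhibits Kv1 and Kv7 channels, had 252 in ALCAM+, 660.5 in Sca-1+ and 559 in double-negative cells. It was 2.22-fold lower in ALCAM+ than in double-negative and 2.62-fold lower than in Sca-1+ cells. Kcnab2, a cytoplasmic beta subunit of Kv1 channels, had 61.0, 166 and 86.1, at least 2.20-fold lower in ALCAM+ than in Sca-1+ cells. Kcne2 was above the floor in double-negative cells only, at 97.5. None of the 4 KChIP genes (Kcnip1 to Kcnip4), partners of Kv4 channels, was measured, nor were Kcnab1, Kcnab3, Kcne1, Kcne1l and Kcne3.

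Inward rectifiers pass potassium more easily into than out of the cell. Kcnj15, encoding Kir4.2, had 300 in ALCAM+, 97.4 in Sca-1+ and 62.3 in double-negative cells. ALCAM+ exceeded double-negative cells at least 3.98-fold and Sca-1+ cells 3.08-fold, and its other 2 probe sets were below the floor. Kcnj11, encoding Kir6.2, the pore of ATP-sensitive channels, was close to even, with 672, 722 and 881, at most 1.31-fold apart. Kcnj6, Kcnj9 and Kcnj13 were above the floor on 1 array each, and Kcnj1, Kcnj2, Kcnj3, Kcnj4, Kcnj5, Kcnj10, Kcnj12, Kcnj14 and Kcnj16 on none.

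The non-coding member measured was Kcnq1ot1, the imprinted antisense RNA of the Kcnq1 locus. It had 1203 in ALCAM+, 618 in Sca-1+ and 1246 in double-negative cells, 2.02-fold lower in Sca-1+ than in double-negative cells. The next 3 of its probe sets, from 986, 566 and 867 down to 96.5, 45.3 and 89.0, were also lowest in Sca-1+ cells. Kcnq1 itself was below the floor on every array.

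Differences were then read against how far probe sets of a gene disagree. Across 4152 genes with a pair of probe sets above the floor on all arrays, the pair's log2 differences differed with an SD of 0.54 for ALCAM+ against double-negative, 0.67 for Sca-1+ against double-negative and 0.75 for ALCAM+ against Sca-1+ cells. This is disagreement between probe sets read on the same arrays, and variation between repeated arrays, from mouse to mouse or sort to sort was not measured. Of the called members, Kcnma1, Kcnk5 and Kcnq5 alone were above the floor on all arrays, as these pairs were. Of the 4, 6 and 7 members called in the 3 comparisons, 2, 3 and 2 had another probe set above the floor on either array, and in all of these the other probe sets ran the same way. Those genes were Kcnk1, Kcnma1, Kcnq5 and Kcna6. Of the 10 members called, 5 have a single probe set.

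**Figure D4:**
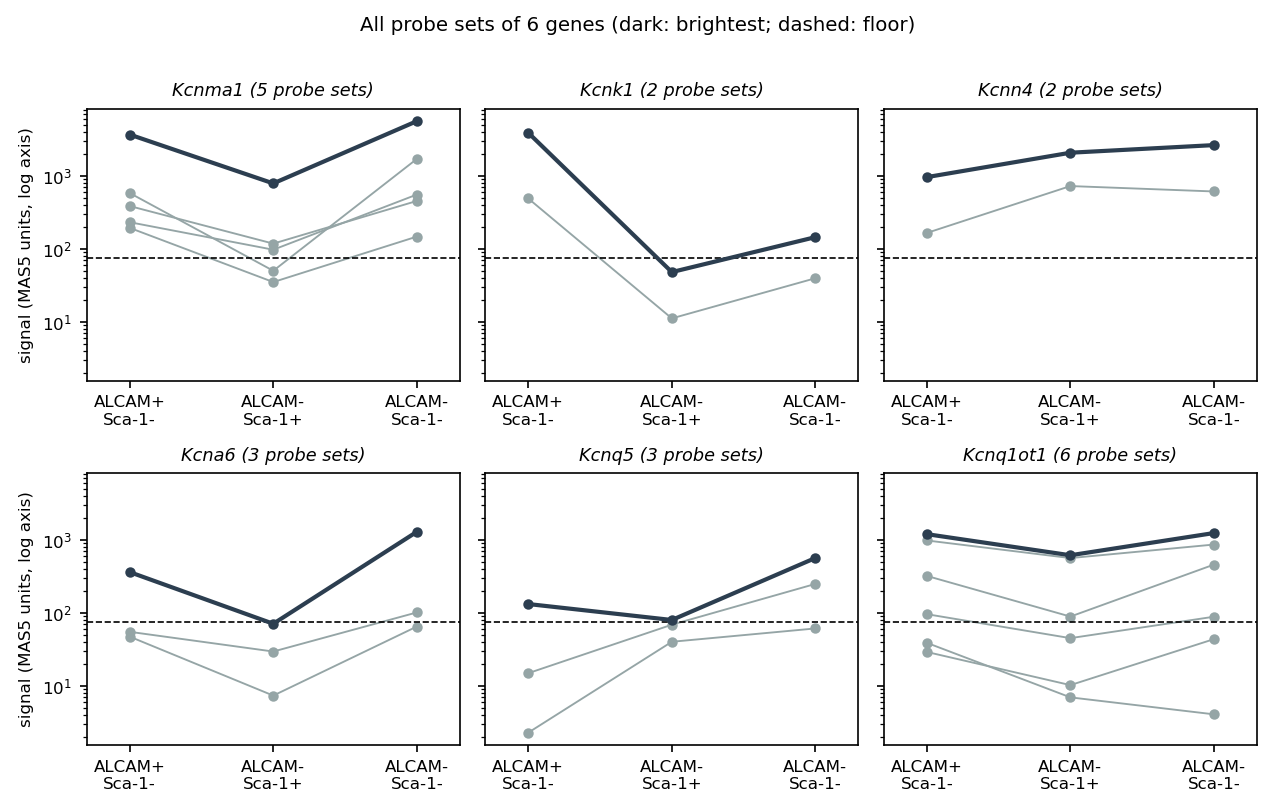
Signal on each array (log axis) for every probe set of 6 potassium channel genes, each line a probe set, dark for the brightest, with the floor of 75.4 dashed and 1 array per population. All 5 probe sets of Kcnma1 are lowest in Sca-1+ cells, and both probe sets of Kcnk1 are highest in ALCAM+ cells.

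Markers of other cell types moved with some of these genes, and their part in the results was not tested. Beside the members highest in double-negative cells, the erythroid list of 8 named genes summed to 413 in ALCAM+, 309 in Sca-1+ and 18700 in double-negative cells, with 2, 1 and 8 genes above the floor. Klf1, Slc4a1 and Alas2 were below the floor in both marker-positive populations and at 3649, 2414 and 152 in double-negative cells. The 7 cell cycle genes summed to 1209, 1241 and 24482. Beside the members highest in Sca-1+ cells, the 9 neutrophil genes summed to 452, 14758 and 3529, with 2, 8 and 6 above the floor. Of these, 5 in Sca-1+ cells exceeded double-negative cells by 4-fold or more, and Mpo, Elane and Prtn3 were lower by as much. The 8 endothelial genes summed to 265, 833 and 322, with 1, 1 and 2 above the floor, Tek alone passing it in Sca-1+ cells at 631 and Pecam1 below it on all 3 arrays. Beside Kcna2 and Kcnc2, whose products are best known from nerve, 5 nerve or Schwann cell genes summed to 9889, 16593 and 7281, with 4, 2 and 4 above the floor. Most of that sum is Pmp22, at 9121, 16139 and 6357, whereas Sox10 and Tubb3 were below the floor in Sca-1+ and above it in the other populations, and Snap25 was below it on all arrays. Beside the 7 members lower in Sca-1+ than in ALCAM+ cells, all 9 chondrocyte and all 7 osteoblast genes were at least 4-fold lower in Sca-1+ too.

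Other proteins that move or regulate potassium were read in the same way. Of 12 named subunits of the sodium/potassium pump, 9 were measured, 3 of them at least 4-fold higher and 1 lower in ALCAM+ than in Sca-1+ cells, beside 3.99% and 5.86% of all measured genes. Fxyd2, a small regulator of the pump, had 8215 in ALCAM+, 47.0 in Sca-1+ and 12578 in double-negative cells, at least 167-fold lower in Sca-1+ than in double-negative cells. Fxyd3, of the same family, had 6378, 155 and 3450. Atp1b3, a pump beta subunit, had 21728, 3814 and 8829, so that it was 5.70-fold higher in ALCAM+ than in Sca-1+ cells. Fxyd5 ran the other way, with 1015, 6362 and 3138, and Atp1b1 was 4.51-fold higher in Sca-1+ than in double-negative cells, at 562 and 125. Atp1b2 was above the floor in double-negative cells only, at 850, at least 11.3-fold above both others.

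Of 11 named channel partners outside the Kcn symbols, 5 were measured. Abcc9, the sulfonylurea receptor SUR2 of ATP-sensitive channels, had 851 in ALCAM+, 2070 in Sca-1+ and 136 in double-negative cells, 6.25-fold and 15.2-fold above double-negative cells. Kcnj11, a pore gene of such channels, was at most 1.31-fold apart, and Abcc8, encoding SUR1, had 83.3, 73.4 and 53.1. Kcnj8 was left out of the set and is not reported here, so the pores that may join Abcc9 are not all covered. Of 6 named Slc12a genes, a family of chloride cotransporters, 4 were measured. Slc12a7, encoding the potassium-chloride cotransporter KCC4, was 4.12-fold higher in ALCAM+ than in Sca-1+ cells, with 1284, 312 and 596. Of 7 named cation channels of the same superfamily, Hcn2 alone was measured, at 48.3, 79.0 and 106.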

How the data were processed

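The series holds 3 arrays, 1 per sorted population, each assigned by its title. TRIzol was used for total RNA and a 2-cycle assay for labelling, per the labels' protocols, and such an assay amplifies small samples and favours 3' ends. The values are the deposited linear signal intensities of 45101 probe sets per array, which the authors produced with MAS5 according to the submitters' processing notes (version not given in the sources used here). Each array is scaled by 1 factor, so total RNA per cell cannot be read from it, and the number of arrays limits the precision.

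The 64 control probe sets entered no result. Genes were named from the array's annotation, in which 34945 probe sets have 1 symbol, 932 have several and 9160 are not listed. All 83 members were found by Entrez identifier in a RefSeq table (GRCm38.p6), with 0 symbols differing. No further normalization was made in the main results. Signals were raised to the floor of 75.4 and turned to log2. With 1 array per group there was no test. The script was checked on simulated data. Members at least 2-fold apart in any comparison were to be given with every signal, other members by name or range, and genes of other lists if at least 4-fold apart, up to 6 per list. Genes named beyond this were chosen after their values were seen. The members and lists were chosen with earlier results of these data known. Alternatives were a 2-fold size, quantile normalization, 3 other floors, scaling on poly-A or hybridization controls, the mean of a gene's probe sets, and probe sets without _s, _x or _a suffix. Python 3.11.15, pandas 2.3.3 and matplotlib 3.10.9 were used.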

Additional observations from a re-analysis of the deposited data

How the results depend on the processing

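No paired analysis was possible because each population has 1 array, and the labels carry no replicate numbers. Counts are given in the order ALCAM+ against double-negative (higher, lower), Sca-1+ against double-negative (higher, lower) and ALCAM+ against Sca-1+ (higher, lower), where the main values were 3, 1, 1, 5, 7 and 0. At 2-fold they were 7, 5, 4, 7, 8 and 6. A floor at the 75th percentile of all signals (433.9) left fewer genes: 12 members were measured in place of 33, and the counts were 1, 0, 0, 2, 3 and 0. Among all 8422 genes measured at that floor, the counts in the same order were 122, 86, 345, 223, 256 and 356. With a floor at the 25th percentile (21.1), 74 were measured. Then 4 were higher and 10 lower in Sca-1+ than in double-negative cells, beside 5.47 and 5.28% of all measured genes. In ALCAM+ cells 2 were lower than in Sca-1+ cells, beside 6.12%. With a floor taken from olfactory and vomeronasal receptor genes (62.3), Sca-1+ had 2 higher than double-negative cells, beside 5.49% of all measured genes. ALCAM+ had 1 lower than Sca-1+ cells, beside 5.95%. The median log2 difference of all genes in the 3 comparisons was -0.03, 0.00 and -0.01 in the main values. Under poly-A scaling it was -0.58, 0.20 and -0.82, and the counts were 1 higher and 4 lower, 2 higher, and 2 higher and 2 lower. The shares of all measured genes were 1.12 and 5.18%, 7.17%, and 2.12 and 12.3%. Under hybridization scaling the median was -0.46, 0.24 and -0.74, and the counts were 1 higher and 3 lower, 2 higher, and 3 higher and 2 lower. The shares were then 1.28 and 4.38%, 7.42%, and 2.26 and 11.3%. With the mean of probe sets, the lower counts against double-negative cells were 0 and 2, beside 1.53 and 3.21% of all measured genes. Then 4 were higher in ALCAM+ than in Sca-1+ cells, beside 2.95%. Beyond the number of genes each floor leaves measured, the cause was not tested. Of the called differences of single genes, those of Kcnk1 and that of Kcnma1 between Sca-1+ and double-negative cells passed 4-fold under all 8 alternatives that keep the 4-fold size. Quantile normalization changed all 57 log2 differences of the genes at least 2-fold apart by less than the SD between probe sets. With changes that small a 2-fold difference cannot turn sign, and 0 of 37 did. Poly-A and hybridization scaling, also with 0 of 37, multiply each array by 1 factor. These factors differ by less than 2-fold between arrays, so a 2-fold difference could not turn sign under them. The call of Kcna6 between ALCAM+ and Sca-1+ cells held in 4 of 8. Comparisons with a signal at or below the floor, as for Kcnt2 in double-negative cells, give only a bound.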
